A study of Danio rerio with 2 samples.

Results

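A set of 137 zebrafish genes was abundant in lymphocytes sorted from the thymus and nearly without reads in myeloid cells sorted from melanoma. A gene entered the set when it stood at 100 CPM or more in thymus lymphocytes and was counted with 3 reads or fewer in myeloid cells. CPM is the number of reads on a gene divided by all reads on genes in that library, times 1000000. The set was chosen by these measured values, so its high thymus levels and low myeloid counts are given as a description, with no test. It holds 137 of the 2456 genes at 100 CPM or more in thymus lymphocytes (5.58%), out of 32520 genes counted. In the other direction, 75 of the 1972 genes at 100 CPM or more in the myeloid library had 3 reads or fewer in the thymus library (3.80%).

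Both populations were sorted as EGFP+ from Tg(cd8α:EGFP) fish, in which a region upstream of *cd8a* drives EGFP. The thymus lymphocytes came from untreated fish and are labelled lck:mCherry+/CD8:EGFP+, at 6 weeks post fertilization, although the methods of the study give the thymus donors as older juveniles and name EGFP alone for this sort. The myeloid cells came from melanomas, are labelled as 6 weeks post fertilization and as treated for 24 h with SB431542, an inhibitor of the TGF-β type I receptor. The melanoma fish also carried an oncogenic BRAF transgene and lacked p53 and *mitfa* (the nacre mutation), and their tumors start from melanocytes in which an injected MiniCoopR vector restores *mitfa*. There was 1 library of each kind, and the number of fish pooled is not given in the sources used here. Tissue, cell type, tumor genotype and drug treatment differ together between the libraries and cannot be told apart, and a difference between them compares these libraries only.

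T cells mature in the thymus from progenitors that rearrange their antigen receptor genes. A developing T cell signals through the receptor, the coreceptor and a chain of kinases and adaptors, and cells with a useful receptor survive and go on to the CD4 or CD8 lineage. Dendritic cells and macrophages belong to the myeloid branch. They take up and present antigen, and they do not rearrange antigen receptor genes. Both kinds of cell share most of the machinery for transcription, translation and protein turnover.

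The thymus library held 32975680 reads on genes and the myeloid library 39446435. Genes with 0 reads were nevertheless fewer in the thymus library (9972 of 32520) than in the myeloid library (13405). Where no read was counted, the level could still be 0.0910 CPM in thymus lymphocytes and 0.0761 CPM in myeloid cells, which correspond to 3 reads. Intervals below are 95% intervals by the Wilson method for the fraction of reads on a gene, and they cover the counting error of reads only. The amplified reads carry no molecular identifiers, so copies of 1 molecule count as separate reads and the intervals can be too narrow. With 1 library per group, spread between fish is left out. The thymus label was checked against *cd8b*, the β chain of the CD8 coreceptor, and *lck*, the kinase that binds it. *cd8b* had 2748 reads in the thymus library, against 0 in the myeloid library, and *lck* had 2534 reads, against 0. The 12 matched genes of antigen receptors and coreceptors summed to 551 CPM in thymus and to 90.1 CPM in myeloid cells. All 12 were at 1 CPM or more in thymus, and 2 were in myeloid cells. *cd8a* itself, whose upstream region marks both populations, was at 44.2 CPM in thymus lymphocytes and at 4.13 CPM in myeloid cells. The macrophage gene *mpeg1* (ENSDARG00000043093) was at 0.121 CPM in thymus lymphocytes and at 250.4 CPM in myeloid cells. The 44 matched markers of mononuclear phagocytes divided less sharply, with sums of 2510 CPM in thymus and 5788 CPM in myeloid cells. Of these, 8 were at 1 CPM or more in thymus and 23 in myeloid cells. Higher in thymus were *cd74a* (604 CPM, against 143 CPM in myeloid cells), *cd74b* (369 CPM, against 14.2 CPM) and *cebpb* (963 CPM, against 173 CPM). The 12 matched markers of dendritic cells summed to 992 CPM in thymus and to 119 CPM in myeloid cells. Of these, 8 were at 1 CPM or more in thymus and 5 in myeloid cells, and *cd83* was at 548 CPM in thymus and 58.4 CPM in myeloid cells. Markers of melanocytes summed to 2.64 CPM in the thymus library and to 26083 CPM in the myeloid library, with none of the 19 matched markers at 1 CPM in thymus and 12 of 19 at 1 CPM or more in myeloid. The share of tumor cells in that library, and its part in the results, was not tested.

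Of the 137 genes, 49 (35.8%) had 0 myeloid reads, 44 (32.1%) had 1 read, 29 (21.2%) had 2 reads and 15 (10.9%) had 3 reads. Together they took 887185 thymus reads, or 2.69% of that library, against 147 myeloid reads. Their thymus levels ran from 101 to 1009.6 CPM, with a median of 158 CPM. The other 2319 genes at 100 CPM or more in thymus had a median of 188 CPM there and of 89.9 CPM in the myeloid library. For the 49 genes with 0 myeloid reads, the thymus share was at least 1340-fold to at least 10386-fold higher, computed against 3 reads. The upper Wilson limit for 0 myeloid reads was 0.0974 CPM, above the 0.0761 CPM of 3 reads. Against that limit, every fold given here and below as "at least" would be smaller. In bulk RNA, fewer cells of a type and less RNA per cell cannot be told apart, which holds for every level given here. Where a gene of the set is given below with a CPM and a number of myeloid reads, the CPM is its level in thymus lymphocytes.

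Genes with so few myeloid reads stood at the low end of the distribution. Among the 2456 genes abundant in thymus, 1082 (44.1%) were also at 100 CPM or more in the myeloid library, 990 (40.3%) were between 10 and 100 CPM and 175 (7.13%) were between 1 and 10 CPM. There were 31 with 10 to 39 reads and 41 with 4 to 9 reads, fewer in each case than the 49 with no read at all. The share of genes that belonged to the set was smaller at higher thymus levels. It was 6.72% of the 1324 genes from 100 to 200 CPM, 5.52% of 725 from 200 to 400 CPM, 2.09% of 335 from 400 to 1000 CPM and 1.39% (1 of 72) above that.

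**Figure D1:**
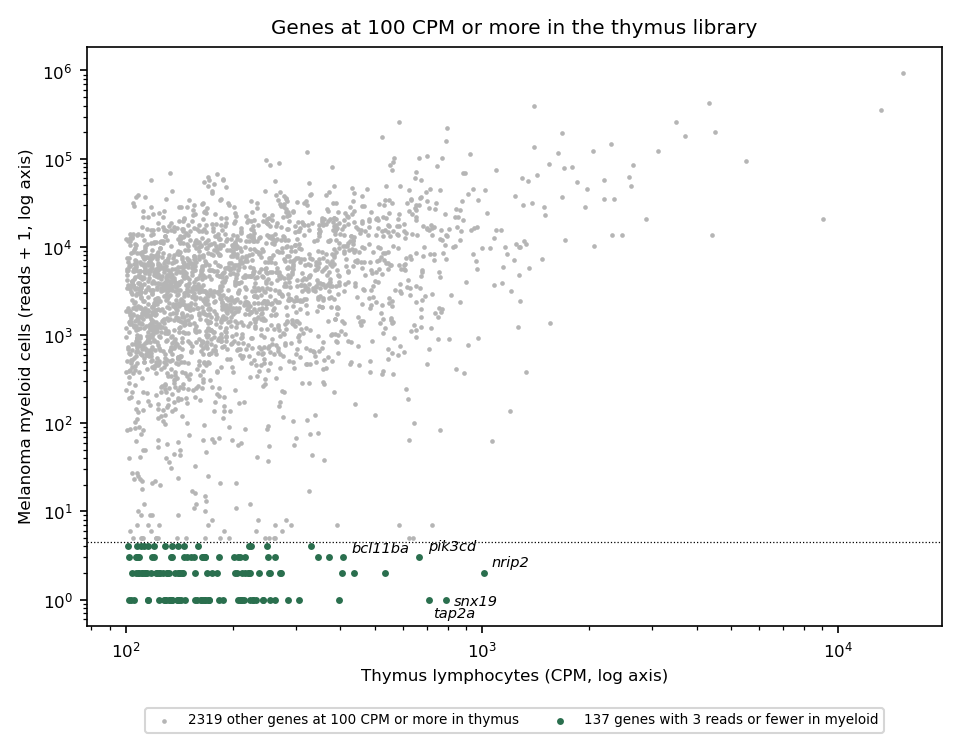
Thymus lymphocytes (CPM, horizontal log axis) are plotted against reads in melanoma myeloid cells (reads + 1, vertical log axis) for the 2456 genes at 100 CPM or more in thymus, 1 point per gene and 1 library per axis. The 137 genes below the dotted line have 0 to 3 myeloid reads, 18 genes with 4 reads lie just above it, beside 15 with 3 reads just below, and *nrip2* is the only one of the 137 above 1000 CPM.

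The 137 genes were sorted by known role, a grouping made by hand after the values were seen. A gene name was available for 123 of them, and 14 had only a clone or project symbol or none. Transcription factors and nuclear cofactors formed the largest group with 20 genes, followed by 15 genes of membrane traffic, organelles and protein turnover. The groups of RNA processing and ribosome biogenesis and of GTPase and actin regulators had 13 genes each. Signaling adaptors with phosphatases and ubiquitin ligases had 12 genes, as did protein kinases, and metabolic enzymes, transporters and secreted proteins had 11. Smaller groups were 7 surface receptors, 6 genes of antigen processing, 6 lipid signaling enzymes, 4 genes of DNA replication, the nuclear pore and the nuclear envelope, 2 innate immune genes and 2 others. Genes with no myeloid read were 49 of all 137 (35.8%). They were 6 of the 7 surface receptors, 5 of the 6 antigen processing genes and none of the 6 lipid signaling enzymes. Those 5 antigen processing genes lie side by side, and groups this small, made with the values in view, are given as a description.

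**Figure D2:**
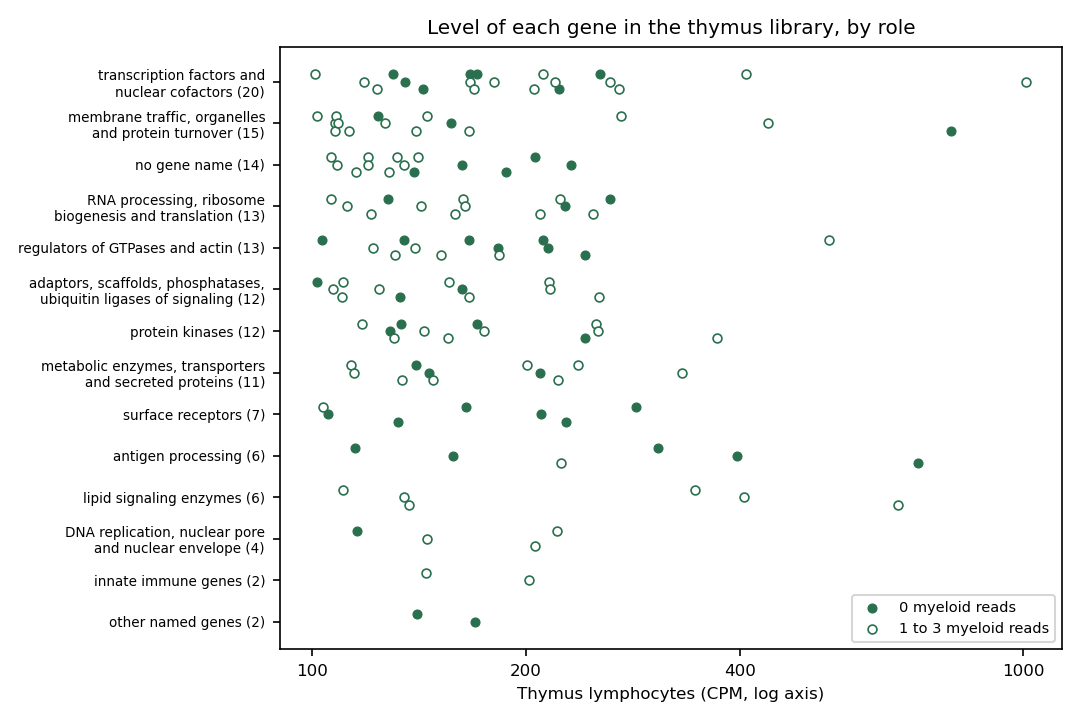
Thymus CPM (horizontal log axis) of each of the 137 genes is shown by role, with the number of genes in brackets, from 1 library. Filled points had 0 myeloid reads and open points 1 to 3. Filled are 49 of all 137 genes, among them 6 of 7 surface receptors and 5 of 6 antigen processing genes.

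Lists of genes that T cells use covered a small part of the set. The 12 lists include survival genes and genes of DNA replication and mitosis, which other cells use too. Of 122 genes on these lists that were at 100 CPM or more in thymus, 21 (17.2%) belonged to the 137, beside 5.58% of all genes at that level. These 122 genes had medians of 218 CPM in thymus lymphocytes and 17.3 CPM in myeloid cells. The 21 included *cd28* and *btla* among receptors, *cbl*, *themis*, *itk* and *malt1* among receptor-proximal signaling, and *rora*, *myb*, *irf4b*, *bcl11ba*, *satb1* and *nfatc2* among lineage factors. *ccr7* and one copy of *cxcr4* came from the homing list, *arhgap4a*, *myo1f* and *stk10* from the motility list, and *mcm5* and *mcm7* from the replication list. No gene qualified from the lists of receptor gene rearrangement (3 genes at 100 CPM or more), the Notch pathway (4) or cytokine receptors with JAK-STAT (17). None qualified from effector genes (4) or GIMAP and immune NTPases (1). These numbers are too small to read against the share of all genes. The 3 rearrangement genes were *hmgb1a*, *hmgb1b* and *hmgb2b*, which encode general chromatin proteins, and the NTPase gene was *nlrc3*. Near misses included one *rbpj* gene (722 CPM in thymus, 6 myeloid reads), *tyk2* (392 CPM, 6) and *tgfbr2* (282 CPM, 7). Above 10 CPM in myeloid cells were 2 of the 4 Notch genes and 8 of the 17 cytokine genes. Of the 137 genes, 116 were on none of the 12 lists.

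Surface receptors led with *ccr7*, the chemokine receptor that guides lymphocytes and dendritic cells toward lymph nodes in mammals. It had 9404 reads in thymus lymphocytes (285 CPM, interval 279 to 291), against 0 in myeloid cells, at least 3750-fold higher. *cd40* had 6921 thymus reads (209.9 CPM) and 0 myeloid reads. In mammals this receptor of the TNF receptor family is best known from B cells and antigen-presenting cells, where it receives help from T cells. Costimulation was represented by *cd28*, at 105 CPM in thymus (3478 reads) with 0 myeloid reads. The inhibitory receptor gene *btla* was at 165 CPM (5425 reads) with 0 myeloid reads. Both are receptors of the immunoglobulin superfamily that set how strongly a T cell responds to antigen. *dag1*, which encodes dystroglycan, a receptor for the extracellular matrix known from muscle, had 7500 thymus reads (227 CPM) and 0 myeloid reads. The last of the 7, *ptgfrna*, had 3420 thymus reads and 1 myeloid read and encodes a membrane protein of the immunoglobulin superfamily.

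The *cxcr4* genes, which encode receptors for the chemokine Cxcl12, divided between the libraries. The copy in the set (ENSDARG00000057633) had 4359 reads in thymus lymphocytes (132 CPM), against 0 in myeloid cells. The other copy was at 2472 CPM in thymus lymphocytes and at 342 CPM in myeloid cells, so only 1 of the 2 genes was missing from the myeloid library. Lymphoid and myeloid homing genes outside the set included *ccr9* (ENSDARG00000055186), the receptor for the thymic chemokine Ccl25, at 9049 CPM in thymus and 529 CPM in myeloid cells.

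Receptor-proximal signaling contributed the Tec family kinase *itk*, with 4304 thymus reads (131 CPM) and 1 myeloid read, and *themis*, needed for positive selection of thymocytes in mice, with 5147 thymus reads (156 CPM) and 1 myeloid read. The ubiquitin ligase *cbl*, which tags active receptors for removal, had 7107 thymus reads (216 CPM) and 1 myeloid read. Other members of this pathway narrowly missed the rule. *zap70*, the kinase that binds the phosphorylated receptor chains, was at 235 CPM in thymus with 7 myeloid reads, and *tec*, a relative of *itk*, was at 97.0 CPM with 0. *lck* was at 76.8 CPM with 0 myeloid reads and *cd8b* at 83.3 CPM with 0, so both fell below the minimum of 100 CPM. A gene of the pathway with clear myeloid reads was *plcg1*, the phospholipase downstream of these kinases, at 328 CPM in thymus and 17.0 CPM in myeloid cells.

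Further adaptors in the set were named after their values were seen. *sash3*, a lymphocyte adaptor with SH3 and SAM domains, had 5361 thymus reads (163 CPM), against 0 myeloid reads. *samsn1b*, of the same adaptor family, had 4385 thymus reads (133 CPM), against 0, and *sh2b3*, which restrains cytokine receptor signaling, had 3361 thymus reads (102 CPM), against 0. *shoc2*, a scaffold between RAS and RAF, was at 253 CPM with 1 myeloid read. Also in the group were the tyrosine phosphatases *ptpn4* (167 CPM in thymus, 2 myeloid reads) and *ptpn11b* (124 CPM in thymus, 1 myeloid read) and the insulin receptor substrates *irs1* (107 CPM in thymus, 2 myeloid reads) and *irs2* (110.4 CPM in thymus, 3 myeloid reads). A second *ptpn4* gene was at 43.1 CPM in thymus and 36.7 CPM in myeloid cells.

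The *malt1* protein, a protease and partner of *bcl10*, helps carry the antigen receptor signal to NF-κB. *malt1* had 7128 reads in thymus lymphocytes (216 CPM) and 2 in myeloid cells. *bcl10* was at 77.9 CPM in thymus with 6 myeloid reads, below the minimum and above the maximum. The related *malt2* was at 213 CPM in thymus lymphocytes and 20.5 CPM in myeloid cells, so this gene of the pathway was present in both libraries.

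Lipid signaling was marked by *pik3cd*, which encodes the p110δ catalytic subunit of phosphoinositide 3-kinase, a form enriched in white blood cells. It had 21971 thymus reads (666 CPM, interval 658 to 675) and 2 myeloid reads, a ratio of 13141 (interval 3637 to 108518). The p110γ gene *pik3cg* was at 321 CPM in thymus and 111 CPM in myeloid cells, *pik3cb* at 46.8 CPM in thymus and 57.8 CPM in myeloid cells, and *pik3ca* at 37.5 CPM in thymus and 2.97 CPM in myeloid cells. The regulatory subunits were also read in both libraries, *pik3r1* at 132 CPM in thymus and 58.3 CPM in myeloid cells and *pik3r5* at 487 CPM in thymus and 55.0 CPM in myeloid cells. Of these 6 class I genes only *pik3cd* met the rule.

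Other lipid enzymes were *pik3c2b*, a class II phosphoinositide 3-kinase, at 404 CPM with 1 myeloid read, and the diacylglycerol kinase *dgkg*, at 346 CPM with 2. *plcg2*, the phospholipase C better known from B cells and myeloid cells in mammals, was at 135 CPM in thymus lymphocytes with 2 myeloid reads. The inactive phospholipase relative *plcl2* was at 137 CPM with 1 myeloid read. *mtm1*, the phosphoinositide phosphatase mutated in a muscle disease, was at 111 CPM with 1.

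Protein kinases in the set spanned several families. *prkd4*, a protein kinase D, was at 253 CPM with 1 myeloid read, and *map4k6*, a kinase upstream of JNK, at 251 CPM with 2. *stk10*, a kinase that phosphorylates the membrane-to-actin linkers of lymphocytes, had 7991 thymus reads (242 CPM), against 0 myeloid reads. *prkch*, a protein kinase C that does not need calcium, had 4247 thymus reads (129 CPM) and *ptk2b*, a cytoplasmic focal adhesion kinase, had 4404 (134 CPM), each against 0 myeloid reads. The kinases *mark2*, *rps6ka1*, *tlk1*, *prp4k*, *itk* and *ikbke* were between 118 and 175 CPM with 0 to 2 myeloid reads. A second *mark2* gene was at 279 CPM in thymus and 5.65 CPM in myeloid cells. A second *tlk1* gene was at 321 CPM in thymus and 17.9 CPM in myeloid cells. *prkcq*, the protein kinase C of the T cell synapse in mammals, was outside the set, at 83.8 CPM in thymus and 4.23 CPM in myeloid cells.

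Regulators of small GTPases and actin included both zebrafish *def6* genes, the only pair sharing a symbol or its stem in which each gene met the rule. *def6* encodes an exchange factor that acts below the antigen receptor in mice. The copy ENSDARG00000044524 had 17603 thymus reads (534 CPM) and 1 myeloid read, and the copy ENSDARG00000012247 had 7982 thymus reads (242 CPM) and 0 myeloid reads. *rapgef1*, an exchange factor for Rap1, had 7094 thymus reads (215 CPM), against 0 myeloid reads. The GTPase-activating proteins *gmip* (211 CPM) and *arhgap4a* (183 CPM) and the class I myosin *myo1f* (103 CPM) also had 0 myeloid reads. *rgs13a*, a regulator of G protein signaling, was at 167 CPM and the actin-binding gene *ablim1* at 135 CPM, both with 0. A second *ablim1* gene was at 13.3 CPM in thymus and 9.38 CPM in myeloid cells. *rasa3*, *tbc1d10c*, *rab11fip3*, *ppp1r12c* and *arhgap29b* were between 122 and 183 CPM with 1 or 2 myeloid reads.

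Among transcription factors and cofactors, *nrip2* had the most thymus reads of all 137 genes. It had 33291 reads in thymus lymphocytes (1009.6 CPM, interval 998.8 to 1020.5) and 1 read in myeloid cells, a ratio of 39824 (interval 7147 to 1572996). The gene is named for its interaction with nuclear receptors and was on none of the T cell lists. A second gene of this kind, *nrip1b*, was at 124 CPM with 1 myeloid read. Reads were not scaled by transcript length, so these orders are by reads and not by molecules.

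The lineage factors in the set are known from the development or the function of T cells. *bcl11ba*, required for commitment to the T lineage in mice, had 13434 thymus reads (407 CPM) and 2 myeloid reads, and its paralog *bcl11bb* was at 63.4 CPM with 0 myeloid reads. *nfatc2*, activated by calcium below the antigen receptor, had 8905 thymus reads (270.0 CPM) and 1 myeloid read. *rora*, a nuclear receptor of innate lymphoid cells and Th17 cells in mammals, had 8372 thymus reads (254 CPM), against 0 myeloid reads. Its paralog *rorab* was at 37.7 CPM in thymus and 6.29 CPM in myeloid cells. *irf4b* had 7337 thymus reads (222 CPM), against 0 myeloid reads, and *satb1*, a chromatin organizer of thymocytes, had 5499 (167 CPM), against 0. *myb*, a regulator of blood progenitors and thymocytes, had 7238 thymus reads (219 CPM) and 1 myeloid read. Not every T lineage factor followed: *tcf7* was at 759 CPM in thymus with 83 myeloid reads, *runx3* at 455 CPM in thymus and 35.3 CPM in myeloid cells, and *gata3* at 55.4 CPM in thymus and 16.4 CPM in myeloid cells. *ets1* was at 208 CPM in thymus and 81.4 CPM in myeloid cells and *ikzf1* at 192 CPM in thymus and 17.5 CPM in myeloid cells.

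NFAT genes differed within the family. Besides *nfatc2*, *nfat5a*, a factor of the response to salt stress, was at 180.4 CPM in thymus lymphocytes with 1 myeloid read. *nfatc1* was at 15.8 CPM in thymus and 4.13 CPM in myeloid cells, and *nfatc3* at 26.1 CPM in thymus and 7.43 CPM in myeloid cells, so neither approached the minimum in thymus. *cabin1*, an inhibitor of calcineurin, the phosphatase that activates NFAT, was at 143 CPM with 0 myeloid reads. *skil*, a repressor of TGF-β signaling, had 8662 thymus reads (263 CPM) and 2 myeloid reads. The remaining factors, *atad2b*, *znf217*, *fli1rs*, *sbno2*, *nsd1a*, *rlf*, *nfic*, *zeb1a* and *mrtfb*, were between 101 and 211 CPM with 0 to 3 myeloid reads.

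Antigen processing gave 6 genes, and 5 of them lie side by side. In the RefSeq gene order of the GRCz12tu assembly, *psmb13a*, *psmb8*, *psmb12*, *psmb9* and *tap2a* follow one another without another placed gene between them. The psmb genes encode catalytic subunits of the immunoproteasome type, which cuts proteins into peptides for MHC class I, and *tap2a* encodes one chain of the transporter that carries the peptides into the endoplasmic reticulum. *tap2a* had 23411 reads in thymus lymphocytes (709.9 CPM, interval 701 to 719), against 0 in myeloid cells, at least 9335-fold higher. *psmb9* had 13061 thymus reads (396 CPM) and *psmb12* had 10120 (307 CPM), each against 0. *psmb8* had 5214 thymus reads (158 CPM) and *psmb13a* had 3793 (115 CPM), each against 0. All 5 adjacent genes therefore had no read in the myeloid library. That library held more reads on genes than the thymus library, but also more genes with 0 reads.

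Genes on both sides of this stretch were read in both libraries. Next to *psmb13a*, the class I gene *mhc1uba* went the other way, with 21 reads in thymus lymphocytes (0.637 CPM), against 26828 in myeloid cells (680.1 CPM). Beyond it, *tapbp.2*, a chaperone that loads peptides on class I, was at 115 CPM in thymus and 22.9 CPM in myeloid cells, and *tapbp.1* at 180.0 CPM in thymus and 9.99 CPM in myeloid cells. On the side of *tap2a*, the chromatin reader *brd2* was at 161 CPM in thymus and 88.7 CPM in myeloid cells. Zebrafish haplotypes of this locus are known to differ in which class I, proteasome and transporter genes they carry, and the fish of the 2 libraries differed in their genetic background. The part of haplotype in these counts was not tested.

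**Figure D3:**
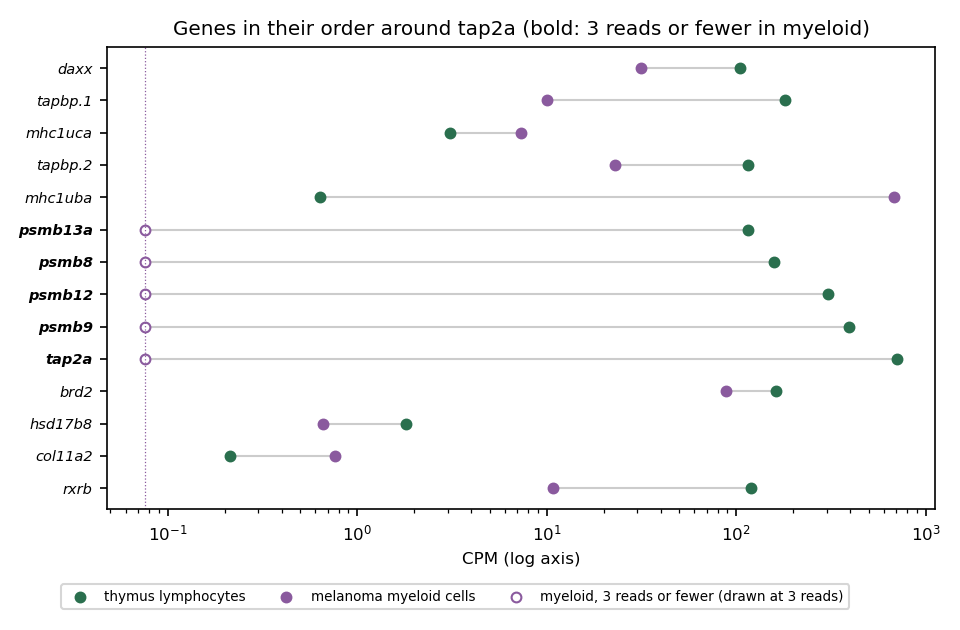
CPM (horizontal log axis) in thymus lymphocytes (green) and melanoma myeloid cells (purple) for genes in RefSeq order around *tap2a* with more than 20 reads over both libraries, 1 library each. The 5 genes in bold had 0 myeloid reads and are drawn as open points at the value of 3 reads, while *mhc1uba* beside them is at 0.637 CPM in thymus and 680.1 CPM in myeloid cells.

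Antigen processing genes elsewhere were not uniformly low in the myeloid library. *tap1*, the other chain of the transporter, was at 584 CPM in thymus lymphocytes with 6 myeloid reads, just outside the rule. The further transporter gene *tap2t* was at 107 CPM in thymus and 29.2 CPM in myeloid cells. The trimming peptidase *erap2* was in the set with 7394 thymus reads (224 CPM) and 3 myeloid reads, and the *erap1* copies were at 40.5 CPM with 2 reads (ENSDARG00000013024) and 63.2 CPM with 0 (ENSDARG00000021859). The constitutive catalytic subunits of the proteasome were read in both libraries, *psmb5* at 101 CPM in thymus and 140.2 CPM in myeloid cells, *psmb6* at 112 CPM in thymus and 229 CPM in myeloid cells and *psmb7* at 271 CPM in thymus and 1059 CPM in myeloid cells. *psmb10*, another immunoproteasome subunit, was at 82.2 CPM in thymus and 79.3 CPM in myeloid cells. The activator genes *psme1* (122 CPM in thymus and 62.2 CPM in myeloid cells) and *psme2* (612 CPM in thymus and 190.5 CPM in myeloid cells), *b2m* (612 CPM in thymus and 367 CPM in myeloid cells) and the class I gene *mhc1zba* (3513 CPM in thymus and 6550.5 CPM in myeloid cells) were all present in the myeloid library.

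Paralogs were compared because the zebrafish genome keeps many duplicated genes, and the rule did not use the reads of a partner. A partner with the same symbol, or the same stem and another final letter, was found for 44 of the 137 genes. For 23 of them the partner was at 1 CPM or more in the myeloid library, and for 15 at 10 CPM or more. In 18 cases the partner also had 3 myeloid reads or fewer, of which 12 were under 10 CPM in thymus and 6 were at 10 CPM or more there. The other 3 partners had at least 4 myeloid reads but under 1 CPM. These counts describe gene names, and a shared symbol can also join genes that are not duplicates. Partners of the other 2319 genes at 100 CPM or more in thymus were not counted. The counts here and below therefore cannot be read as a trait of the set.

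The 23 partners with myeloid reads were mostly lower there than in thymus, 17 against 6. *samsn1a* was one of the 6 that were higher, at 8.07 CPM in thymus and 152 CPM in myeloid cells, whereas its paralog *samsn1b* had 0 myeloid reads. *ptgfrnb* was also read on the myeloid side, with 0 thymus reads and 18.9 CPM in myeloid cells, and its paralog *ptgfrna* was at 104 CPM in thymus with 1 myeloid read. *arhgap29a* showed the same exchange with *arhgap29b*, at 0.0607 CPM in thymus (2 reads) and 5.35 CPM in myeloid cells. Higher in myeloid as well were the partners of *fbxl14* (6.16 CPM in thymus and 7.30 CPM in myeloid cells) and *gramd4* (0.0303 CPM in thymus and 2.13 CPM in myeloid cells).

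Partners that were lower in myeloid cells but present included the second copies of *prp4k* (143 CPM in thymus and 103 CPM in myeloid cells), *sbno2* (193 CPM in thymus and 51.6 CPM in myeloid cells), *irs2* (71.0 CPM in thymus and 45.9 CPM in myeloid cells) and *scaf4* (323 CPM in thymus and 44.9 CPM in myeloid cells). *ptpn11* was at 58.9 CPM in thymus and 35.2 CPM in myeloid cells, and *zeb1* at 86.7 CPM in thymus and 24.9 CPM in myeloid cells. *cblb*, a separate gene that the naming rule paired with *cbl*, was at 199 CPM in thymus and 20.7 CPM in myeloid cells. Partners with 3 myeloid reads or fewer and 10 CPM or more in thymus were both *def6* genes, *bcl11bb*, *irf4* (38.1 CPM), *prkch* (33.8 CPM) and *nfat5b* (12.1 CPM). The paralogs of *nfatc2* and *skil* also had few myeloid reads: *nfatc2b* was at 64.0 CPM in thymus with 5 myeloid reads and *skilb* at 184 CPM with 20.

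**Figure D4:**
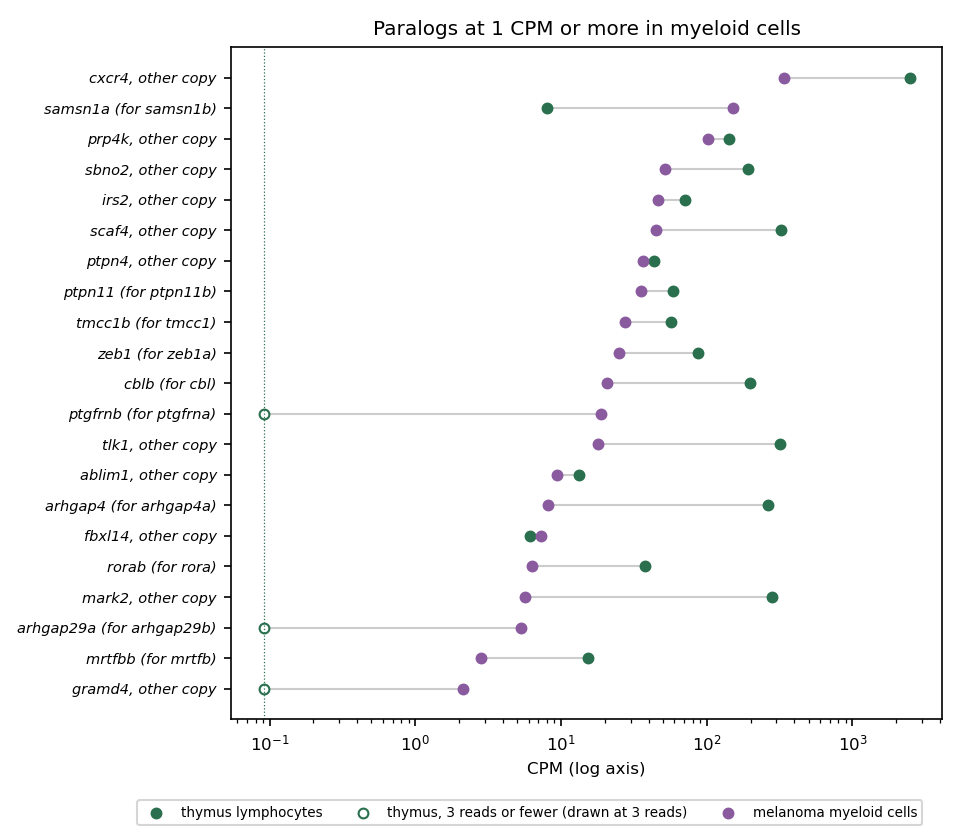
CPM (horizontal log axis) in thymus lymphocytes (green) and melanoma myeloid cells (purple) for 21 of the 23 paralogs that were at 1 CPM or more in myeloid, 1 library each, with the gene of the set named in brackets. Open green points had 3 thymus reads or fewer and are drawn at 3 reads, and 16 of the 21 paralogs shown are lower in myeloid cells and 5 higher.

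Some of the 137 genes encode parts of complexes that dividing or growing cells share. These complexes were picked with their values in view. Of the 6 subunits of the MCM helicase, which opens DNA for replication, *mcm5* had 6789 thymus reads (206 CPM) and 2 myeloid reads, and *mcm7* had 4795 (145 CPM) and 2. The other subunits were read in both libraries, *mcm2* at 463 CPM in thymus and 36.3 CPM in myeloid cells, *mcm3* at 141 CPM in thymus and 30.6 CPM in myeloid cells, *mcm4* at 255 CPM in thymus and 57.4 CPM in myeloid cells and *mcm6* (ENSDARG00000057683) at 237 CPM in thymus and 18.7 CPM in myeloid cells. The subunits act as a ring of 6 different proteins, yet only these 2 genes met the rule.

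RNA polymerase I showed a like split. *polr1b*, the second largest subunit, had 4691 thymus reads (142 CPM) and 1 myeloid read. The largest subunit gene *polr1a* was at 231 CPM in thymus and 35.7 CPM in myeloid cells, *polr1e* at 89.5 CPM in thymus and 102 CPM in myeloid cells, *polr1f* at 43.5 CPM in thymus and 35.5 CPM in myeloid cells, and *polr1c* and *polr1d* were higher in myeloid cells, at 121 CPM in thymus and 286 CPM in myeloid cells and at 8.13 CPM in thymus and 43.4 CPM in myeloid cells. Genes that act on the RNA this enzyme makes were also in the set: *tbl3* (209.5 CPM, 2 myeloid reads) and *heatr1* (128 CPM in thymus, 0 myeloid reads) of the small-subunit processome and *nvl* (106 CPM in thymus, 2 myeloid reads), which releases large-subunit precursors. The processome genes *wdr43* (949 CPM in thymus and 419 CPM in myeloid cells) and *fcf1* (74.1 CPM in thymus and 86.6 CPM in myeloid cells) were read in both libraries.

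In the inner ring of the nuclear pore, *nup188* had 7304 thymus reads (221 CPM) and 3 myeloid reads. Its partners *nup205* (96.5 CPM) and *nup155* (45.7 CPM) had 7 myeloid reads each, and *nup93* was at 188 CPM in thymus and 129.9 CPM in myeloid cells. *nploc4*, a cofactor that hands ubiquitinated proteins to the p97 ATPase, was at 166 CPM with 2 myeloid reads. Its partner *ufd1* was at 140.0 CPM in thymus and 92.7 CPM in myeloid cells, and the p97 gene *vcp* at 3122 CPM in thymus and 3117 CPM in myeloid cells, nearly equal shares of the 2 libraries.

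**Figure D5:**
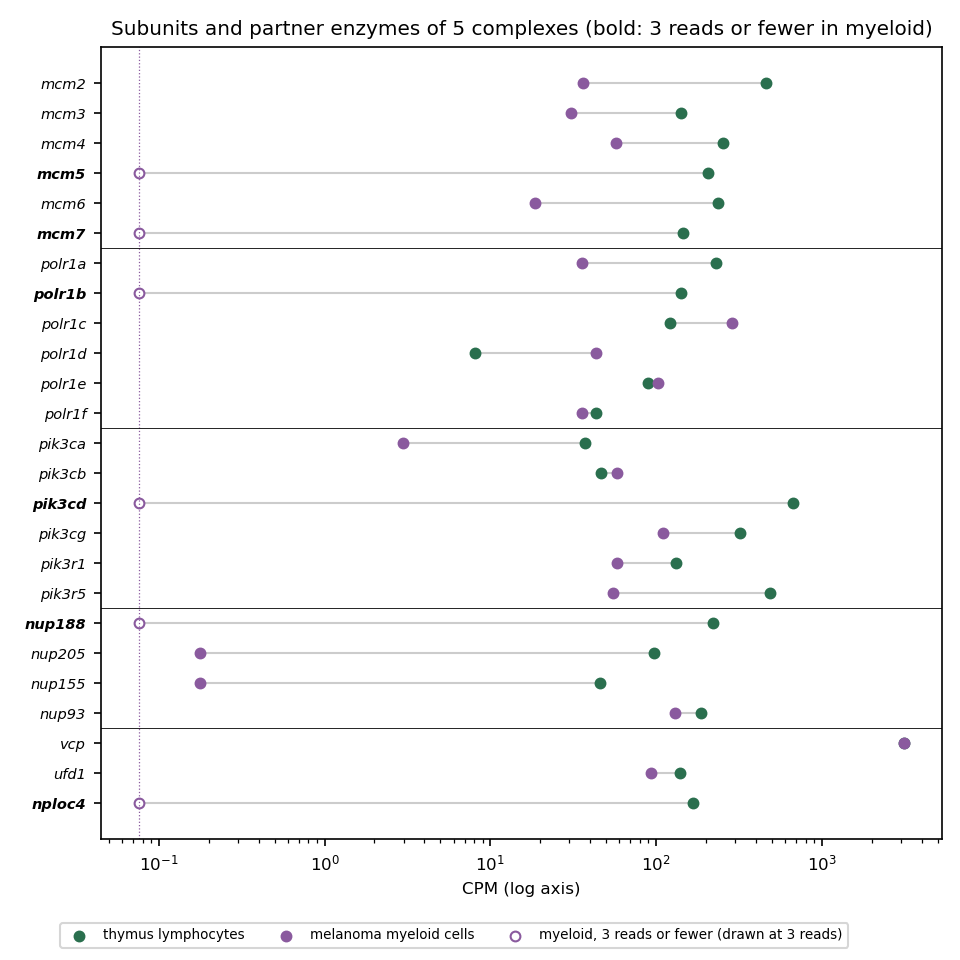
CPM (horizontal log axis) in thymus lymphocytes (green) and melanoma myeloid cells (purple) for the genes of 5 complexes or enzyme families, separated by lines (MCM helicase, RNA polymerase I, class I phosphoinositide 3-kinase, inner nuclear pore ring, p97 with cofactors), 1 library each. Genes in bold had 1 to 3 myeloid reads and are drawn open at 3 reads, and the *vcp* points overlap at 3122 CPM in thymus and 3117 CPM in myeloid cells.

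Lists of genes that every cell uses held few genes of the set, and most of those few were not general subunits. Of 166 such genes at 100 CPM or more in thymus, 7 (4.22%) belonged to the set, beside 5.58% of all genes at that level, and the 166 had medians of 235 CPM in thymus and 245 CPM in myeloid cells. Of the 7, 4 were the psmb genes of the immunoproteasome type beside *tap2a*. *rps6ka1* is a kinase matched through the name of a ribosomal protein, and *eif4enif1* is a shuttling protein that binds the translation factor Eif4e. Only the last, *polr1b*, is a subunit of a complex that every cell uses, so the 4.22% mostly counts other genes. No gene met the rule among those of the spliceosome (22 at 100 CPM or more), respiratory chain (18), chaperonin (7), COP9 signalosome (2) or mitochondrial genome (7), and at 5.58% of all genes lists of this size would hold few or none. Lists of other cell types held 2 of 13 such genes (15.4%), *ccr7* from the dendritic cell list and *psmb12*, which an older synonym matched to the thymic epithelial list. These 13 genes are also too few to read against the 5.58% of all genes.

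RNA regulators outside these complexes were led by *ago4*, an Argonaute protein that binds small RNAs, with 8650 thymus reads (262 CPM), against 0 myeloid reads. *cluh*, which binds mRNAs of mitochondrial proteins, had 7491 thymus reads (227 CPM), against 0, and a second *cluh* gene had 1 thymus read and 0 myeloid reads. The splicing regulator *mbnl1* had 7355 thymus reads (223 CPM) and 1 myeloid read. *scaf4*, which binds RNA polymerase II, was at 248 CPM with 3 myeloid reads. *sfswap*, *helz*, *dis3l*, *eif4enif1* and *pus7* were between 112 and 164 CPM with 1 to 3 myeloid reads.

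Genes of membrane traffic and protein turnover included the second and sixth of the 137 by thymus reads. *snx19*, a sorting nexin, had 26047 reads in thymus lymphocytes (789.9 CPM, interval 780.4 to 799.5), against 0 in myeloid cells, at least 10386-fold higher, while the other *snx19* gene was at 0.849 CPM in thymus with 0 myeloid reads. *capn7*, a calpain protease of the ESCRT pathway, had 14418 thymus reads (437 CPM) and 1 myeloid read. *atp13a1*, an ATPase that removes misplaced proteins from the endoplasmic reticulum, had 8979 thymus reads (272 CPM) and 1 myeloid read. *tmcc1* (157 CPM) and *golga3* (124 CPM) had 0 myeloid reads. *eps15*, *ttc3*, *gramd4*, *synrg*, *msto1*, *vcpip1*, *mia3* and *fbxl14* were between 102 and 145 CPM with 1 to 3.

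Several genes of the set are better known from tissues other than T cells, and they were picked out after their values were seen. *scube2*, a secreted protein that helps release Hedgehog ligands in zebrafish, had 3783 reads in thymus lymphocytes (115 CPM) and 1 in myeloid cells. *ca8*, a carbonic anhydrase relative without enzyme activity known from the cerebellum, had 6615 thymus reads (201 CPM) and 2 myeloid reads. *elovl4*, which makes very long fatty acids in the retina, had 6913 thymus reads (209.6 CPM), against 0 myeloid reads, and the other *elovl4* gene had 0 thymus reads and 1 myeloid read. *serpina10a*, of a family of plasma protease inhibitors, was at 148 CPM with 2 myeloid reads, and its paralog *serpina10b* was at 6.97 CPM with 1. *hs3st3b1b*, a heparan sulfate sulfotransferase, had 10916 thymus reads (331 CPM) and 3 myeloid reads, and its paralog *hs3st3b1a* had 0 thymus reads and 2 myeloid reads. Markers of thymic epithelial and stromal cells summed to 374 CPM in thymus, of which *psmb12* alone gave 307 CPM. In the myeloid library they summed to 4479 CPM, of which the keratin gene *krt18b* alone gave 3942 CPM. Whether these transcripts came from the lymphocytes or from other cells of the sort was not tested.

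Other enzymes and transporters were also read nearly only in thymus. *tpst1l*, of the tyrosylprotein sulfotransferase family that modifies chemokine receptors, had 7816 thymus reads (237 CPM) and 1 myeloid read, and *gmds*, the first enzyme of GDP-fucose synthesis, had 7316 (222 CPM) and 1. *tmc8* (140.4 CPM) and the magnesium transporter *slc41a2* (146 CPM) had 0 myeloid reads. *slc27a4*, a fatty acid transporter, was at 134 CPM with 2, and *acad9*, needed to assemble mitochondrial complex I, at 113 CPM with 1. The innate immune genes were *nlrc3l1*, of the NLR family, at 202 CPM with 1 myeloid read, and *parp9*, known from the interferon response in mammals, at 145 CPM with 1. The genes *lemd3* of the inner nuclear envelope (116 CPM in thymus, 0 myeloid reads), *niban1* (169.7 CPM in thymus, 0 myeloid reads) and *tprg1* (141 CPM in thymus, 0 myeloid reads) belonged to smaller groups.

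The 14 genes without a gene name were between 106 and 231 CPM in thymus lymphocytes, with a median of 133 CPM, and 5 of them had 0 myeloid reads. The highest was *zmp:0000001082* (ENSDARG00000098899), with 7627 thymus reads, against 0. Next came *si:ch211-184m13.4* (ENSDARG00000079522), with 6796 thymus reads, against 0, and ENSDARG00000114026, with 6185, against 0. No function is given to these genes here.

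Position in the genome was compared by gene order alone. Of the 137 genes, 102 were placed in the RefSeq order of 16953 genes, in which 1957 of those at 100 CPM or more in thymus were placed. Neighbors that both met the rule formed 5 pairs. The stretch from *psmb13a* to *tap2a* made up 4 of them, and *nrip1b* with *samsn1b* made the fifth. Adjacent pairs among all 1957 placed genes at 100 CPM or more in thymus were not counted. Whether 5 pairs are many or few therefore cannot be read.

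Near the limits of the rule the genes were alike in reads. The lowest 5 genes inside were *ptgfrna*, *myo1f*, *fbxl14*, *sh2b3* and *mrtfb*, between 101 and 104 CPM in thymus, and the 5 just outside were *arhgap25* (99.6 CPM), *mepce* (99.6), *rttn* (98.1), *foxk1* (97.9) and *gfm1* (97.1), with 2 myeloid reads each. A further 23 genes at 100 CPM or more had 4 myeloid reads (18 genes) or 5 (5 genes). They included *si:dkey-262k9.2* at 639 CPM, *parp8* at 622 CPM, the splicing factor *eftud2* at 275 CPM, *carmil2* at 262 CPM and *il7r*, the interleukin-7 receptor of developing T cells, at 195 CPM with 4 myeloid reads. Which genes belong therefore turned on 1 or 2 reads for those at 3 to 5 myeloid reads.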

How the data were processed

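Cells were sorted to high purity, 1 ng of RNA per sample was amplified with a SMART-Seq low input kit, and Nextera XT was used to build the libraries. The authors deposited counts of reads per Ensembl gene for each library, not normalized. The submitters' processing notes name cutadapt, STAR 3.0, HTSeq and GRCz11, whereas the methods of the study name TopHat, GRCz10 and FPKM values from Cufflinks, and which build the counts come from was not settled. Whether counting used strand is not given in the sources used here, so overlapping genes and near-identical paralogs can share or lose reads. The thymus table also held 5 summary lines with 28.4% of its reads, 6966482 of them on alignments that were not unique, and these were left out. The myeloid table held 0 such lines.

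CPM, Wilson intervals at the 95% level and exact conditional binomial intervals of ratios were obtained with scipy 1.17.1, numpy 2.4.6 and pandas 2.3.3 under Python 3.11.15, and figures were drawn with matplotlib 3.10.9. A fold against 0 reads was computed against 3 reads. With 1 library per group no test, p-value or replicate error was possible. A check on simulated data covered the ratio intervals, at a smaller ratio and with more reads on the low side than here. That part therefore does not speak to ratios that rest on 1 to 3 reads, and the Wilson intervals were not checked. The rule was also run on simulated libraries from which chosen abundant genes had been removed. Recovery of those genes was fixed by that design, so it only shows that the rule was coded as stated. Symbols were matched to 29201 of 32520 gene identifiers, and older symbols and gene order came from RefSeq on GRCz12tu, from which no coordinates were taken. A partner shared the symbol, or its stem with another final letter or another number after a dot or hyphen.

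The genes named were the 25 with the highest thymus CPM, those on the lists, those at the limits of the rule, the paralogs of named genes and cd8a, cd8b, lck and mpeg1. The other genes, the role groups, the complexes and the genes around tap2a were chosen after their values were seen. A few genes that meet this rule are not reported here. The 137 genes and all lists were chosen with earlier results of these data known. The alternatives were effective library sizes from edgeR 4.0.16 (TMM) and size factors from DESeq2 1.42.0 in R 4.3.3, totals that left out the 10 most read genes of each library, a minimum of 50 or 200 CPM, a maximum of 0 or 10 reads, and reads summed over genes that share a symbol.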

Additional observations from a re-analysis of the deposited data

How the results depend on the processing

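The number of genes in the set was 137 and stayed within 1.5 times of it with TMM (107), DESeq2 size factors (109), totals that left out the 10 most read genes of each library (154), a maximum of 10 myeloid reads (180) and reads summed by symbol (128). It moved to 300 with a minimum of 50 CPM, where the limit of 300 genes applied and 352 met the rule, to 48 with a minimum of 200 CPM and to 49 with a maximum of 0 reads. Genes on the T cell lists numbered 21, and 39 with 50 CPM, 10 with 200 CPM and 10 with 0 reads. Genes on the lists used by every cell numbered 7, and 2 with 200 CPM and 4 with 0 reads. Genes on the lists of other cell types numbered 2, and 1 when lists were matched by symbol alone, an alternative chosen after seeing the data. Summing reads by symbol removed 13 symbols, among them *cxcr4* and *scaf4*, because the other copy had myeloid reads, and added 5, among them *erap1*. The order by coding length and the share of promoters with a motif were not run, since no lengths or promoter sequences were used here. No paired analysis was possible because each group had 1 library, and for the same reason no library could be left out. At these depths a count of 0 to 3 myeloid reads does not show that a transcript was absent. The upper Wilson limit was 0.0974 CPM for 0 myeloid reads and 0.224 CPM for 3. Amplification of little RNA can also lose transcripts.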
